A study of Mus musculus with 20 samples.

Results

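The 10 genes described here encode 1 glucose transporter, Slc2a1, and 9 enzymes that carry glucose to pyruvate and lactate: Hk2, Pfkp, Aldoa, Tpi1, Pgk1, Pgam1, Eno1, Pkm and Ldha. They were chosen by gene symbol, and each symbol matched 1 row, so they make 10 of the 23402 rows of the deposited expression table. All of them were among the 12788 rows with a mean of at least 0.5 FPKM (fragments scaled to gene length and sequencing depth) that were tested. RNA came from tumours that the mouse colon adenocarcinoma line MC38 formed under the skin of mice. The Control group had 10 libraries from vehicle-treated tumours, and the P.T.ATBx group, written ATBx in some places below, had 10 from tumours with peri-tumoral ATBx, that is, ATBx given around the tumour. The labels name no agent, dose, time, mouse strain or age, and 1 tumour line stood for all tumours of both groups. Per its title, the study is about tumour microbes and interferon signalling. Nothing in the labels says that each library came from its own mouse, and a p-value therefore reflects the spread among libraries, which may be technical in part.

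Glycolysis turns glucose into pyruvate in the cytosol and yields ATP and NADH. Lactate dehydrogenase then converts pyruvate to lactate and regenerates the NAD+ that the pathway needs. Many tumours run the pathway at a high rate even with oxygen present, and most of its genes are textbook targets of the hypoxia-inducible transcription factor HIF.

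The promoter windows of 5 of the genes are shown because HIF binds sites built on the letters ACGTG or GCGTG. Each window of 250 bases ends just before a RefSeq start of the gene (GRCm38.p6, written 5′ to 3′ on the gene's strand). The Pfkp and Ldha windows lie inside the gene spans printed below, so their starts are not the outermost ones. Capitals mark ACGTG, whose reverse complement reads CACGT, as well as the second form GCGTG, whose reverse complement reads CACGC. Matches that overlap were counted separately, so the 6 letters CACGTG count as 2.
Hk2: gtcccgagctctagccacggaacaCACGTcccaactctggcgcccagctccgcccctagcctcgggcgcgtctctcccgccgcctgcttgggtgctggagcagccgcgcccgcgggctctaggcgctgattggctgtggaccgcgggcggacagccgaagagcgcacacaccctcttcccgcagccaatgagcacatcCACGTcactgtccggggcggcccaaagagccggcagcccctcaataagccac
Pfkp: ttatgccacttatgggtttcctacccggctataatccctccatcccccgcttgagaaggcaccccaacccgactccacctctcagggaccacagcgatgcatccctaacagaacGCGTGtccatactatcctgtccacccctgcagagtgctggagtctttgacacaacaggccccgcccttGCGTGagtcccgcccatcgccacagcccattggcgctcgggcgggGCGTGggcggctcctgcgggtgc
Tpi1: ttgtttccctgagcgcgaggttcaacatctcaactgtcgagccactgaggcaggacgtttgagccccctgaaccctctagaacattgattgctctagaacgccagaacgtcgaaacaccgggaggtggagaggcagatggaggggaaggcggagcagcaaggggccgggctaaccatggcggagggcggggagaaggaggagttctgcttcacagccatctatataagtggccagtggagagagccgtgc
Pgk1: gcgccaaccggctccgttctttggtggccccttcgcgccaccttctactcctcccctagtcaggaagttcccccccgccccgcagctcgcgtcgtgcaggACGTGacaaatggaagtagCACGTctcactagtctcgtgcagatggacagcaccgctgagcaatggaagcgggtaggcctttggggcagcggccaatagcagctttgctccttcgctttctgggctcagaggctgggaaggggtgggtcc
Ldha: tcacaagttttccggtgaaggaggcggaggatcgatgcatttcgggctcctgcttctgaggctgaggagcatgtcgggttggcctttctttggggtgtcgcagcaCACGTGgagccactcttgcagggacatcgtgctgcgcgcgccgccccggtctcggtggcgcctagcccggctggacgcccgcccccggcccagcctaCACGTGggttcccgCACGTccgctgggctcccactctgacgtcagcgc

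The Hk2 window (chr6:82774455-82774704, minus strand) held 2 matches, with the nearest 52 bases before the start. The Pfkp window (chr13:6648772-6649021, minus strand) held 3, and the Pgk1 window (chrX:106186850-106187099, plus strand) held 2. The first of the Ldha windows (chr7:46845554-46845803, plus strand) held 5 matches, among them 2 copies of CACGTG, the E-box that Myc also binds. The Tpi1 window (chr6:124814159-124814408, minus strand) held 0. The 10 genes had 16 such windows in all, since Aldoa, Eno1, Pkm and Ldha have more than 1 start, and 9 genes had a match in some window. Some windows of Aldoa and of Eno1 overlap and hold the same matches, so the windows are not all separate stretches. A match stood in 81.25% of these 16 windows and in 38.6% of the 32851 windows of all genes, while CACGTG stood in 6.25% and 6.02%. The median GC content was 65.2% in the 16 windows and 52.4% in all windows, and the matched letters are rich in G and C. A match is a description of the letters and shows no binding.

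The libraries were alike in rows above 0 and in upper quartile but not in summed FPKM or make-up. Summed FPKM ran from 556770 in Control 2 to 752782 in Control 1, with P.T.ATBx 1 at 700925. Between 15527 and 16345 rows were above 0 per library, and the upper quartile of FPKM ran from 18.7 to 19.4. The table holds no counts, so absolute depth is unknown, and relative depth read from the spacing of low values ran from 0.808 to 1.29. The noncoding RNAs Rpph1 and Rmrp made up between 7.75% and 20.5% of all FPKM and were most abundant in Control 1, P.T.ATBx 1, Control 3 and P.T.ATBx 4, while the 10 genes together took 0.247% to 0.480%. The labels give the cell type as cancer cell, but the libraries came from whole tumour tissue. The 9 macrophage markers summed to 1154 to 1905 FPKM, the 7 fibroblast markers to 2433 to 3744, the 7 adipocyte markers to 60.6 to 3071 and the 14 skeletal muscle markers to 2.66 to 115, and 0 markers of these lists were at 0 in all libraries. Between groups, Msr1 of the macrophage list (log2 difference −0.30, adjusted p = 0.0243, limma) and Dcn of the fibroblast list (−0.31, adjusted p = 0.00125, limma) fell after ATBx. Each was the 1 gene called in its list, where 0.383% of all rows were called lower. Of the 9 macrophage markers 6 were negative and 3 positive (median −0.04), with Cd68 at 0.17 (adjusted p = 0.129, limma). Of the 7 fibroblast markers 6 were negative and 1 positive (median −0.13), with Pdgfrb at 0.19 (adjusted p = 0.339, limma). All 11 tested muscle markers had positive log2 differences (median 0.34), and all 7 tested adipocyte (median −0.45) and 6 tested epithelial markers (median −0.28) had negative ones, with 0 of these past the threshold. Of the 8 T cell markers 7 were negative and 1 positive (median −0.25). Of the 6 tested neutrophil markers 5 were negative and 1 positive (median −0.28), and 0 of either list passed. With the muscle or the adipocyte mean as a covariate, 0 of the 10 genes passed (limma), and the part of the other markers was not tested. Among epithelial genes Epcam ran from 0.297 to 10.6 FPKM and the intestinal factor gene Cdx2 was listed at 0 in all 20 libraries. In such bulk tissue, fewer cells of a type and less RNA per cell cannot be told apart.

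Of the 10 genes, Aldoa and those after it in the pathway, except Eno1, had far more RNA than Slc2a1, Hk2 and Pfkp. This is a statement on single genes and not on whole steps. Isozymes outside the 10 add to the first steps, with Hk1 at 33.4 and Pfkl at 33.9 FPKM in Control. The early isomerase gene Gpi1 was at 113 FPKM in Control, above Pgam1. FPKM is scaled to gene length, so levels can be set side by side. In Control, Pkm (pyruvate kinase) was highest at 792 ± 93.6 FPKM (SD, n = 10 here and for all group means below), followed by Aldoa (aldolase) at 498 ± 78.0, Ldha at 483 ± 50.8, Tpi1 (triose phosphate isomerase) at 223 ± 22.6, Pgk1 (phosphoglycerate kinase) at 166 ± 21.6 and Pgam1 (phosphoglycerate mutase) at 78.3 ± 9.45. The transporter gene Slc2a1 stood at 24.3 ± 3.88, Pfkp (platelet-type phosphofructokinase) at 18.5 ± 2.87, Hk2 (hexokinase 2) at 16.0 ± 3.20 and Eno1 (enolase) at 1.07 ± 0.443. The order was the same in P.T.ATBx. Aldoa and Ldha did not differ beyond their spread (log2 ratio 0.04, exact permutation p = 0.350 in Control and p = 0.0781 in P.T.ATBx, sign flips, two-sided). Each of the other 8 pairs of neighbours held its order in 10 of 10 Control libraries (exact permutation p = 0.00195, the smallest that 10 libraries allow, adjusted p = 0.0022 over 9 pairs). In P.T.ATBx, Pfkp lay above Hk2 in 9 of 10 libraries (log2 ratio 0.09, exact permutation p = 0.0332, adjusted p = 0.0374).

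**Figure D1:**
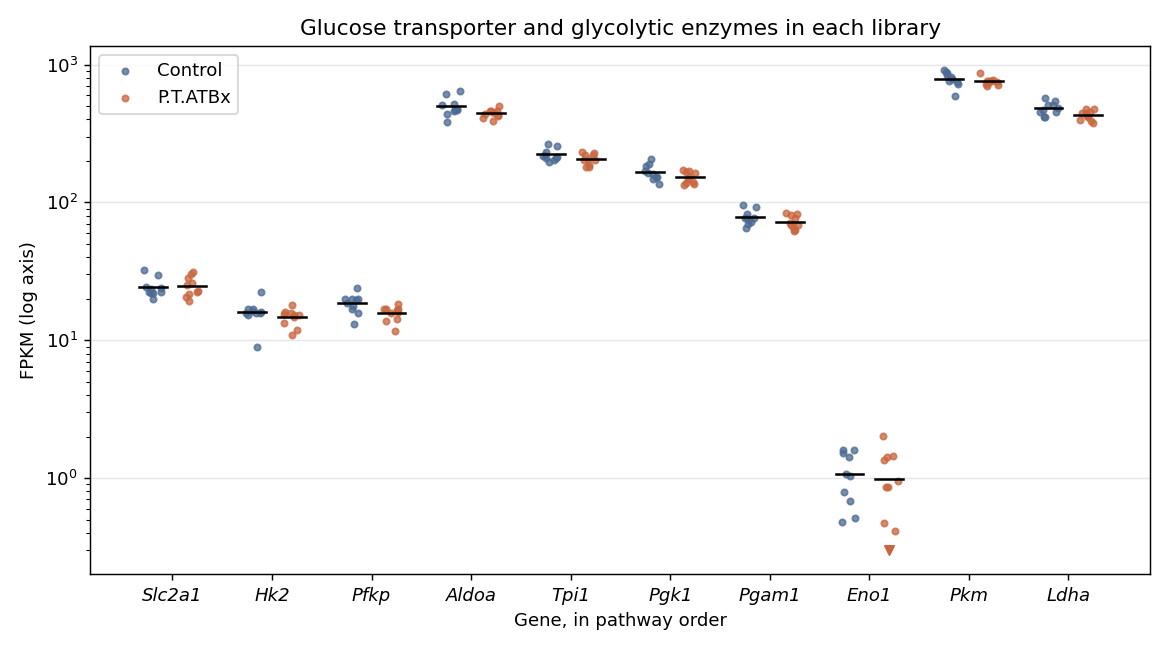
FPKM of the 10 genes on a log axis, 1 point per library, in pathway order, with Control in blue and P.T.ATBx in orange and black bars at the group means. Pkm, Aldoa and Ldha lie between 378 and 914 FPKM while Slc2a1, Hk2 and Pfkp lie between 9.00 and 32.5, and the triangle stands for P.T.ATBx 5, whose Eno1 value of 4.39e-05 is below the axis.

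Eno1 stood apart from the steps around it. Its mean of about 1 FPKM lay between Pgam1 at 78.3 and Pkm at 792 in the same Control libraries, and P.T.ATBx 5 was listed at 4.39e-05. Of the 100-base stretches of Eno1 transcripts (GENCODE M21), 39.5% also occur in other genes' transcripts, nearly all of them in Eno1b, which the table lists as Gm5506 and at 0 in 19 of 20 libraries. Sharing was higher for Pgk1 (67.0%, with the pseudogene Pgk1-rs7) and alike for Pgam1 (39.7%, with Pgam1-ps2). It was 7.52% for Pkm, under 1% for Ldha and Tpi1 and 0 for Slc2a1, Hk2, Pfkp and Aldoa. For stretches of 50 bases it was 49.5% for Eno1, 23.7% for Pkm, 10.4% for Ldha, 6.83% for Tpi1 and 6.57% for Aldoa. The values of Eno1, Pgk1 and Pgam1 are therefore uncertain as levels, and to a lesser degree that of Pkm. Whether sharing set the Eno1 level was not tested.

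After P.T.ATBx, 0 of the 10 genes passed the adjusted threshold of 0.05, where 0.845% of all rows did (limma, Benjamini-Hochberg over 12788 rows). Their differences were small and mostly negative: 9 of 10 had a negative log2 difference, against 48.5% of all rows, and the median was −0.11 on the log2(FPKM + 1) scale against 0.00 over all rows. Pfkp, Aldoa and Ldha reached an unadjusted p under 0.05, all lower, where 6.08% of all rows did so in that direction and 7.51% in the other. In 0 of the 10 genes did the groups stand fully apart, as they did in 0.133% of all rows. Many of these genes vary together from library to library, so the 10 signs are not 10 separate observations.

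The RNA of the glucose transporter gene showed no difference past the threshold, and glucose uptake itself was not measured. Slc2a1 (chr4:119108745-119137330) encodes GLUT1, the transporter that most cells use for basal glucose entry. Control libraries ran from 20.03 over a median of 23.0 to 32.5 FPKM and P.T.ATBx libraries from 19.3 over 23.9 to 31.1. The ranges nearly coincide, and 5 of the 10 ATBx libraries were under the Control median. The log2 difference, ATBx minus Control, was 0.02 (SE 0.09, 95% interval −0.17 to 0.21, adjusted p = 0.945, limma), with −0.01 when P.T.ATBx 2 was left out and 0.07 when Control 10 was.

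The 2 kinases of the upper pathway did not pass either. Hk2 (chr6:82725025-82774454), the inducible hexokinase that phosphorylates glucose, ran from 9.00 over 16.0 to 22.4 FPKM in Control and from 10.9 over 15.3 to 18.1 after ATBx. Control 1 was lowest and Control 10 highest, so the Control range encloses the other, though 8 of the 10 ATBx libraries were under the Control median. Its log2 difference was −0.10 (SE 0.11, 95% interval −0.32 to 0.12, adjusted p = 0.734, limma), with −0.18 without Control 1 and −0.05 without Control 10.

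Pfkp (chr13:6579874-6649060), a phosphofructokinase that commits sugar to glycolysis, ran from 13.2 over 19.0 to 23.8 FPKM in Control and from 11.6 over 16.2 to 18.3 after ATBx. All 10 ATBx libraries were under the Control median and 6 Control libraries lay above the highest P.T.ATBx library, yet the ranges overlap. Its mean was 18.5 ± 2.87 in Control and 15.7 ± 1.93 after ATBx, a log2 difference of −0.22 (SE 0.08, 95% interval −0.40 to −0.05, p = 0.0142, adjusted p = 0.229, limma). At a pseudocount of 1 this was the largest difference of the 10 (at 0.1, Eno1 had −0.35 and Pfkp −0.23), and it passed with library weights (adjusted p = 0.0332, limma with arrayWeights) and under no other alternative.

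In the middle of the pathway, Aldoa (chr7:126795234-126800994), which splits fructose bisphosphate into 2 triose phosphates, ran from 383 over 475 to 646 FPKM in Control and from 392 over 440 to 497 after ATBx. Its Control libraries were more spread, with 4 of them above the highest P.T.ATBx library. The means were 498 ± 78.0 and 442 ± 30.2, a log2 difference of −0.16 (SE 0.07, 95% interval −0.31 to −0.01, p = 0.0398, adjusted p = 0.338, limma). Tpi1 (chr6:124810586-124814158), which interconverts the triose phosphates, ran from 198 over 215 to 267 FPKM in Control and from 180 over 206 to 230.5 after ATBx. Its ranges overlap, with 3 ATBx libraries below the lowest Control library and 3 Control libraries above the highest P.T.ATBx library. Of the 10 ATBx libraries 6 were under the Control median. The log2 difference of Tpi1 was −0.11 (SE 0.06, adjusted p = 0.437, limma).

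The energy-yielding and following steps had similar values. Pgk1 (chrX:106187100-106203699), which makes ATP from bisphosphoglycerate, ran from 135 over 162 to 206 FPKM in Control and from 135 over 149 to 172 after ATBx, with a log2 difference of −0.12 (SE 0.07, adjusted p = 0.459, limma). Pgam1 (chr19:41911871-41918665), which moves the phosphate group of phosphoglycerate, ran from 65.8 over 76.9 to 95.4 and from 62.2 over 69.5 to 83.3, with −0.11 (SE 0.07, adjusted p = 0.517, limma). In both genes 6 of the 10 ATBx libraries were under the Control median and the ranges overlap widely. Eno1 (chr4:150236708-150248879), which forms phosphoenolpyruvate, ran from 0.477 over 1.06 to 1.60 FPKM and from 4.39e-05 over 0.911 to 2.03. Its log2 difference was −0.10 (SE 0.17, adjusted p = 0.844, limma), with 0.00 without P.T.ATBx 5, −0.17 without P.T.ATBx 6 and −0.35 at a pseudocount of 0.1.

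At the end of the pathway, Pkm (chr9:59656576-59679372), whose kinase releases pyruvate and ATP, ran from 595 over 796 to 914 FPKM in Control and from 703 over 753 to 869 after ATBx. The P.T.ATBx range lies inside the Control range, and 9 of the 10 ATBx libraries were under the Control median. Its log2 difference was −0.06 (SE 0.06, 95% interval −0.19 to 0.07, adjusted p = 0.717, limma), with −0.11 without Control 1 and −0.04 without Control 10. Ldha (chr7:46842274-46855627), the subunit of lactate dehydrogenase that favours lactate formation, ran from 415 over 478 to 572 FPKM in Control and from 378 over 435 to 478 after ATBx. All 10 ATBx libraries were under the Control median, 4 of them below the lowest Control library. The Ldha means were 483 ± 50.8 and 430 ± 35.1 FPKM, a log2 difference of −0.16 (SE 0.06, 95% interval −0.29 to −0.04, p = 0.0125, adjusted p = 0.214, limma).

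Extreme libraries recurred across the genes. Control 10 was the highest Control library for Slc2a1, Hk2, Pfkp, Aldoa, Tpi1 and Pkm, and Control 7 for Pgk1, Pgam1 and Ldha. Control 1 was the lowest for Slc2a1, Hk2, Pfkp, Aldoa, Eno1, Pkm and Ldha, and it also had the largest Rpph1 and Rmrp share at 20.5%. Without the 4 libraries richest in Rpph1 and Rmrp, 7 of the 10 genes had an unadjusted p under 0.05, all lower, where 802 of 12755 rows were lower at that level, and 0 passed the adjusted threshold (limma). The log2 differences were then larger for Pkm (−0.12), Pgk1 (−0.19), Tpi1 (−0.17) and Pgam1 (−0.17). After each library was rescaled to 1 sum (TPM scale), 1 gene, Ldha, had an unadjusted p under 0.05, where 483 of 12795 rows were lower at that level, and 0 passed (limma). The differences themselves hardly moved on that scale, with −0.22 for Pfkp, −0.16 for Aldoa and −0.16 for Ldha.

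**Figure D2:**
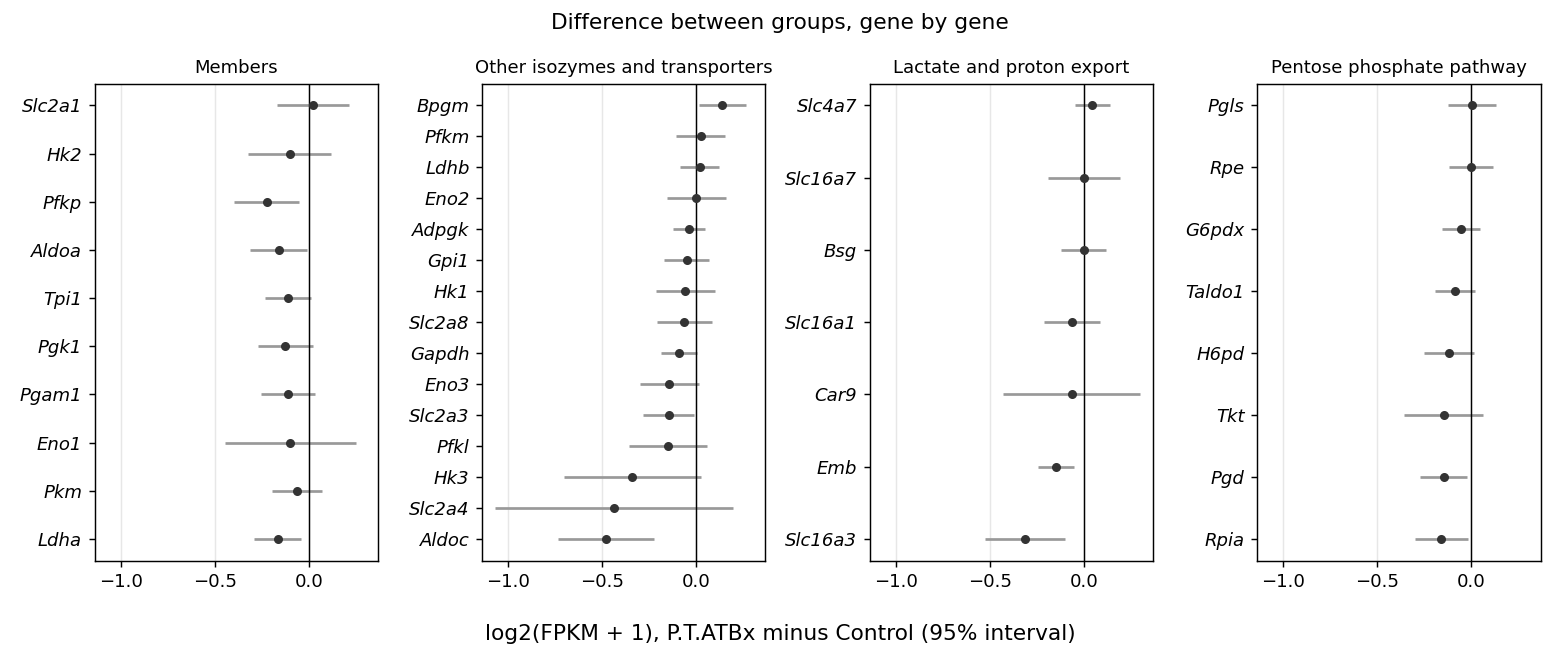
Difference of group means of log2(FPKM + 1), ATBx minus Control, with its 95% interval (limma), 1 point per gene, for the 10 genes and for 3 lists of related genes, of which 1 gene is not drawn. Of the 10 genes, the intervals of Pfkp, Aldoa and Ldha lie below 0, and those of the other 7 cross it.

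Isozymes of the same step can be compared within a library, where scaling between libraries does not enter. Slc2a1 made 92.9% ± 1.48 of the summed FPKM of Slc2a1 and Slc2a3 in Control and 94.0% ± 1.31 in P.T.ATBx. Among hexokinases Hk1, the constitutive form, led with 54.1% and 56.8%, Hk2 made 25.7% ± 2.21 and 26.05% ± 1.98, and Hk3 made 20.2% and 17.2%. Among phosphofructokinases the liver-type gene Pfkl led with 45.2% and 44.0%, the muscle-type gene Pfkm made 29.8% and 32.9%, and Pfkp made 25.0% ± 2.16 and 23.1% ± 2.38. Thus 1 gene made over 90% of the summed RNA for aldolase, mutase and lactate dehydrogenase, and for the pair Slc2a1 and Slc2a3. Other glucose transporter genes were not in that sum, such as Slc2a8 at 4.78 and Slc2a4 at 1.66 FPKM in Control. The hexokinase and phosphofructokinase RNA was divided among 3 genes each.

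The composition of these steps differed little between groups. Ldha made 93.7% ± 0.706 of the RNA of Ldha and Ldhb in Control and 92.9% ± 0.625 in P.T.ATBx, and 9 of the 10 ATBx libraries were under the Control median (permutation p = 0.0195, adjusted p = 0.0682 over 7 families, two-sided). Aldoa made 99.4% ± 0.203 and 99.6% ± 0.101 of the aldolase RNA (permutation p = 0.0146, adjusted p = 0.0682). Pfkp's share differed by −1.93 percentage points (permutation p = 0.0747, adjusted p = 0.174) and that of Slc2a1 by 1.08 (permutation p = 0.102, adjusted p = 0.178). Hk2's share differed by 0.377 percentage points (permutation p = 0.692) and that of Pgam1 by −0.111 (permutation p = 0.652). Of the 7 families, 0 passed the adjusted threshold, and leaving out 1 library moved this to between 0 and 2. Eno1 made 12.2% of enolase RNA in Control and 11.8% in P.T.ATBx (permutation p = 0.885), with Eno3, the muscle enolase gene, at 77.9% and 77.1%; this rests on the uncertain Eno1 level.

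**Figure D3:**
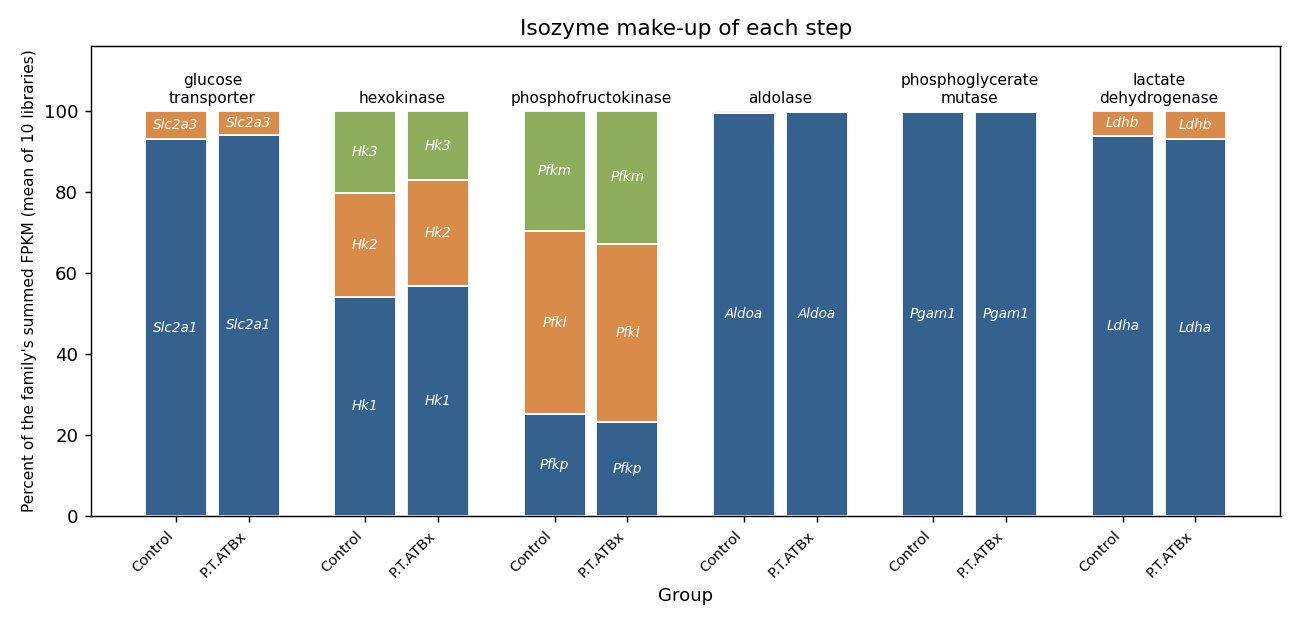
Mean percent of each family's summed FPKM taken by each isozyme gene, over 10 libraries per group, with 1 stacked bar per group. Slc2a1, Aldoa, Pgam1 and Ldha make over 90% of their families in both groups, where the transporter family is Slc2a1 and Slc2a3 only. Hexokinase and phosphofructokinase RNA is divided among 3 genes each, and enolase is not drawn.

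Genes of the same and neighbouring pathways were described in 7 lists. Of 93 listed genes 72 were tested and 0 passed the adjusted threshold (limma). At an unadjusted p under 0.05, 5 of the 72 were higher and 8 lower, where 7.51% and 6.08% of all rows were, and 0.845% of all rows were called. Negative values made 49 of 72, and the median log2 difference was −0.05, where all rows had 48.5% negative values and a median of 0.00.

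Among 15 tested isozymes and transporters outside the 10 genes, 11 were negative with a median of −0.06. Aldoc, the brain-type aldolase, was at 2.79 ± 0.955 FPKM in Control and 1.69 ± 0.453 in ATBx tumours (log2 difference −0.48, SE 0.12, adjusted p = 0.0621, limma), with 9 of the 10 ATBx libraries under the Control median. Slc2a3, the neuronal-type glucose transporter, had −0.15 (p = 0.0377, adjusted p = 0.331, limma) and Bpgm, which makes the red-cell regulator bisphosphoglycerate, had 0.14 (p = 0.0323, adjusted p = 0.314, limma). Among 11 tested flux regulators 9 were negative with a median of −0.05. Pfkfb2, which sets the level of an allosteric activator of phosphofructokinase, was at 4.09 ± 0.417 and 4.73 ± 0.324 FPKM (0.17, SE 0.05, adjusted p = 0.0867, limma), and all 10 ATBx libraries were over the Control median. Txnip, an inhibitor of glucose uptake, had −0.10 (p = 0.0283, adjusted p = 0.3004, limma) and Pgp, a phosphoglycolate phosphatase, −0.18 (p = 0.0557, adjusted p = 0.382, limma).

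Lactate export lies directly after Ldha. Slc16a3, which encodes the lactate exporter MCT4, was at 46.1 ± 10.1 FPKM in Control and 36.5 ± 4.71 in ATBx tumours (log2 difference −0.31, SE 0.10, p = 0.00576, adjusted p = 0.159, limma), and 9 of the 10 ATBx libraries were under the Control median. Emb, a chaperone of such transporters, was at 34.3 ± 3.11 and 30.8 ± 1.60 (−0.15, p = 0.0040, adjusted p = 0.129, limma), with 10 of 10 below. Of the 8 tested genes of this list 6 were negative with a median of −0.06. Thus 0 of 8 passed, while the 2 with the smallest p had the same sign as Ldha.

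The branches of the pathway gave 0 calls as well. In the pentose phosphate pathway, which draws on glucose phosphate to make NADPH and ribose, 7 of 8 genes were negative with a median of −0.10. Its lowest p-values belonged to Pgd (39.6 ± 5.58 and 35.5 ± 2.15 FPKM, −0.15, p = 0.0237, adjusted p = 0.279, limma) and Rpia (−0.16, p = 0.0272, adjusted p = 0.295, limma), followed by H6pd (−0.12, p = 0.0750, limma). Of 12 tested genes of glycogen and hexose phosphates 4 were negative, with a median of 0.02. Pgm3, a phosphosugar mutase of amino sugar synthesis, had 0.12 (SE 0.03, adjusted p = 0.0740, limma), Pygl, liver-type glycogen phosphorylase, −0.48 (adjusted p = 0.162, limma) and Phkb, a phosphorylase kinase subunit, 0.08 (p = 0.0307, adjusted p = 0.312, limma). For pyruvate entry into mitochondria 10 of 14 genes were negative with a median of −0.04, and Pdhx of the pyruvate dehydrogenase complex had 0.09 (p = 0.0375, adjusted p = 0.330, limma). Of 4 tested gluconeogenesis genes 2 were negative with a median of −0.01, and G6pc3, Pck2 and Slc37a4 had the smallest p-values, from 0.409 to 0.524 (limma).

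Within each group, pairs of the 10 genes were mostly positively correlated between libraries, though not all. Pearson's r of the pairs ran from 0.14 to 0.93 in Control and from −0.34 to 0.97 in P.T.ATBx. Over the 45 pairs Pearson's r had a median of 0.72 (Control) and 0.43 (P.T.ATBx), where pairs of all tested genes had a median of 0.00 in both. In a family of 170 relations (the pairs, and each gene with 4 library measures, in both groups), 22 of 45 pairs passed at an adjusted p under 0.05 on r in Control and 10 of 45 in P.T.ATBx (permutation tests, 100000 resamples), and on Spearman's rho 7 and 8 did. The difference between the groups' medians was not tested. Pairs with Eno1 had medians of 0.49 and 0.14.

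Tpi1, Pgk1, Pgam1 and Ldha, a set singled out after these values were seen, were closely correlated in both groups. Their 6 pairs had r from 0.78 to 0.93 in Control and from 0.89 to 0.97 in P.T.ATBx. Pgk1 and Pgam1, which catalyse adjacent steps, had r = 0.932 (permutation p = 0.00015, adjusted p = 0.00413) and rho = 0.842 (permutation p = 0.00363, adjusted p = 0.0335) in Control, and r = 0.837 without the 2 libraries farthest from the median of Pgk1. In P.T.ATBx their r was 0.973 (permutation p = 5e-05, adjusted p = 0.00212) and rho 0.915 (permutation p = 0.00062, adjusted p = 0.0160), with r = 0.963 without 2 libraries. Without the 4 libraries richest in Rpph1 and Rmrp, the 6 pairs had medians of 0.92 (Control) and 0.93 (P.T.ATBx), so these 4 genes moved together with and without them.

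Hk2 and Pfkp, the 2 kinases of the upper pathway, went together but rested on few libraries. Their r was 0.893 in Control (permutation p = 0.00094, adjusted p = 0.00935, and rho = 0.697 with permutation p = 0.0305, adjusted p = 0.115) and 0.820 in P.T.ATBx (permutation p = 0.00471, adjusted p = 0.0236, and rho = 0.576 with permutation p = 0.0879, adjusted p = 0.222). Without the 2 libraries farthest from the median of Hk2, r came to 0.524 (Control) and 0.442 (P.T.ATBx), so the relation rests on Control 1, Control 10, P.T.ATBx 1 and P.T.ATBx 4. Between Hk2 or Pfkp and the 4 lower-pathway genes, the median r was 0.46 (Control) and −0.20 (P.T.ATBx), and 0 of 8 pairs passed in either. Without the 4 libraries richest in Rpph1 and Rmrp these medians were 0.31 and 0.47. On the TPM scale they were 0.77, with 5 of 8 pairs past the threshold on r and 0 on rho, and 0.32, with 0 of 8. Pairs of all genes had a median r of 0.36 in Control and 0.27 in P.T.ATBx on the TPM scale. The sign in P.T.ATBx thus turned without P.T.ATBx 1 and P.T.ATBx 4 and with the scaling, where the median lay near that of all gene pairs.

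**Figure D4:**
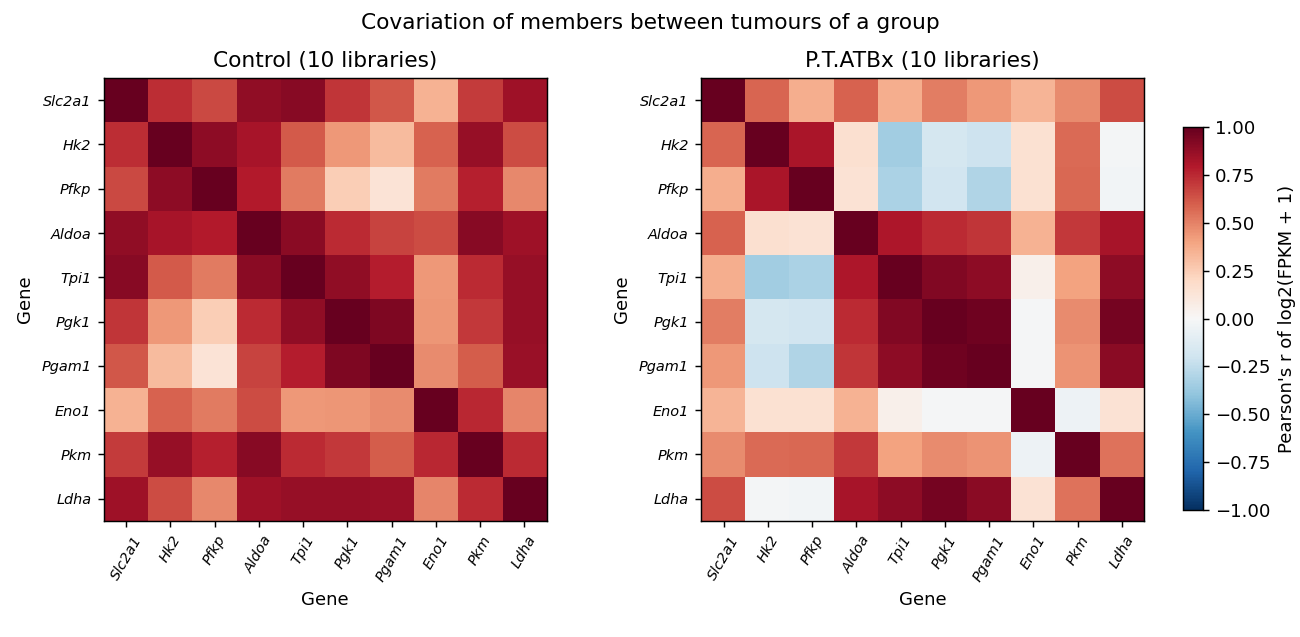
Pearson's r of log2(FPKM + 1) for every pair of the 10 genes, in Control (left) and P.T.ATBx (right), over 10 libraries each, from −1 in blue to 1 in red. Tpi1, Pgk1, Pgam1 and Ldha form a red block in both panels, while Hk2 and Pfkp are red with each other and, in P.T.ATBx, pale to blue against those 4.

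Hypoxia genes outside glycolysis varied with the lower-pathway genes. The measure was the mean centred log2(FPKM + 1) of 16 genes such as Vegfa, Bnip3 and Ndrg1, and it ran from −0.21 to 0.29 in Control and from −0.26 to 0.31 in P.T.ATBx. In Control, 7 of the 10 genes passed: Pgk1 had r = 0.949 (adjusted p = 0.00212, permutation), Tpi1 0.932, Ldha 0.887, Pgam1 0.876, Aldoa 0.871, Pkm 0.819 and Slc2a1 0.797. The value for Slc2a1 rested on Control 7 and Control 10, since r was 0.395 without them. In P.T.ATBx 4 passed: Pgk1 with r = 0.896 (adjusted p = 0.00413, permutation), Ldha 0.875, Pgam1 0.840 and Tpi1 0.811. Spearman's rho of Pgk1 was 0.976 in Control (adjusted p = 0.0051, permutation) and 0.867 in P.T.ATBx (adjusted p = 0.0297, permutation). Without 2 libraries the r of Pgk1 was 0.935 and 0.895. Hk2 (0.588 and −0.04) and Pfkp (0.451 and −0.13) did not pass in either group. On the TPM scale all 10 genes passed in Control, Pfkp with r = 0.737 and Hk2 with r = 0.815, and 5 passed in P.T.ATBx. Pairs of all genes also had positive median r on that scale, 0.36 in Control and 0.27 in P.T.ATBx. On rho 5 genes passed in Control and 3 in P.T.ATBx, and on the TPM scale 7 and 1, with Pgk1 in P.T.ATBx at rho = 0.600 (adjusted p = 0.146, permutation).

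**Figure D5:**
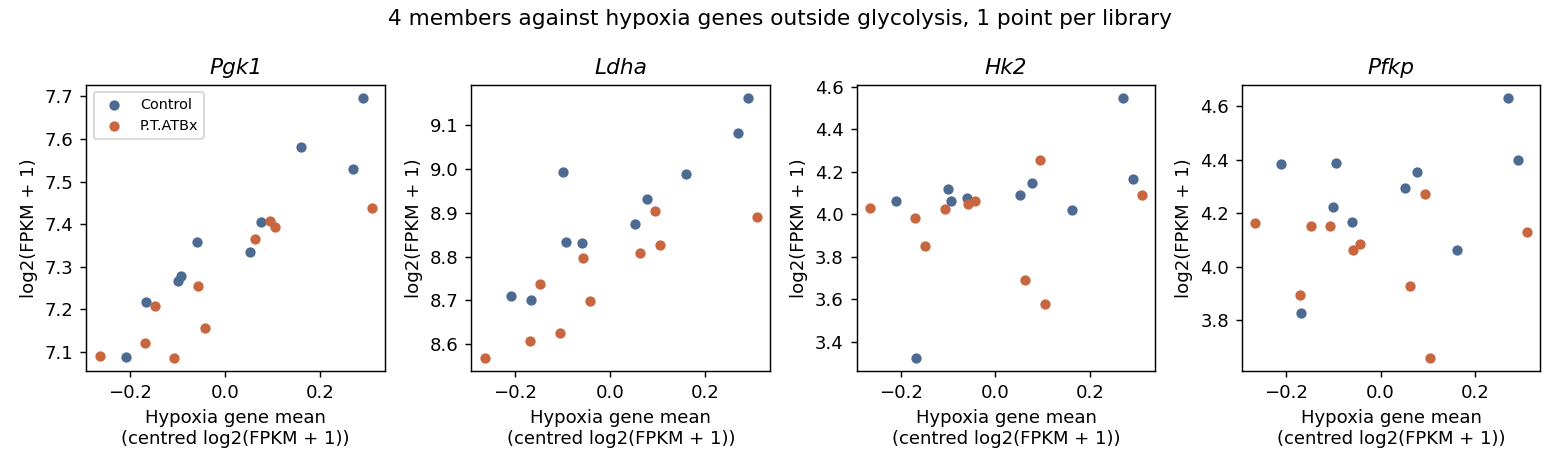
Log2(FPKM + 1) of Pgk1, Ldha, Hk2 and Pfkp against the mean centred log2(FPKM + 1) of 16 hypoxia genes, 1 point per library, Control in blue and P.T.ATBx in orange. Pgk1 (r = 0.949 in Control and 0.896 in P.T.ATBx) and Ldha (0.887 and 0.875) rise along the axis in both groups, while Hk2 and Pfkp scatter.

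Of the 16 hypoxia genes themselves, 1 passed the adjusted threshold and was lower, where 0.383% of all rows were lower. Egln3, the prolyl hydroxylase that marks HIF for destruction and is itself induced by HIF, ran from 9.89 over 13.6 to 15.1 FPKM in Control and from 8.08 over 9.21 to 11.5 after ATBx. All 10 ATBx libraries were under the Control median, and the ranges overlap at their ends. Egln3 thus fell, with a log2 difference of −0.44 (SE 0.07, adjusted p = 0.00125, limma). The 16 genes did not move as 1: 10 were negative with a median of −0.05, and Ddit4, a stress-induced inhibitor of mTOR, was at 30.4 ± 7.45 and 40.7 ± 10.98 FPKM (0.40, p = 0.0098, adjusted p = 0.193, limma). P4ha2, a collagen hydroxylase, had −0.23 (p = 0.0426, adjusted p = 0.346, limma) and Egln1, the main oxygen-sensing hydroxylase, −0.11 (p = 0.0702, limma).

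The other library measures passed with few of the 10 genes on the scale as deposited. With the Rpph1 and Rmrp share, Pkm had r = −0.792 (adjusted p = 0.0488, permutation) and Eno1 −0.707 in Control, and Hk2 had −0.747 in P.T.ATBx (both adjusted p = 0.0497, permutation). Without the 2 libraries with the most extreme shares, r was −0.163 for Pkm, −0.535 for Eno1 and −0.175 for Hk2, so those of Pkm and Hk2 rest on Control 1 and Control 3 and on P.T.ATBx 1 and P.T.ATBx 4, and on rho 0 of these relations passed. On the TPM scale, where that share enters the sum each library is divided by, 9 of the 10 genes passed on r in Control (median r −0.77) and 4 in P.T.ATBx (median −0.59), and on rho 1 and 0 did. With relative depth, Eno1 in P.T.ATBx had r = −0.832 (adjusted p = 0.0157, permutation) and −0.568 without P.T.ATBx 4 and P.T.ATBx 5. With the skeletal muscle mean 0 of 20 relations passed.

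Across all 20 libraries, with group means removed, the genes whose pattern was most like the mean standardised level of the 10 genes were Gpi1 (r = 0.960), which isomerises glucose phosphate, Slc16a3 (0.950), Gapdh (0.932), Pfkl (0.922) and the phosphoglucomutase gene Pgm2 (0.918), out of 12004 genes ranked. At the other end stood Fam173a (−0.800), Crebl2 (−0.792), Rab7l1 (−0.789), Abca9 (−0.758) and Gmfg (−0.755). Among the 10 genes themselves, which enter the mean, r ran from 0.480 for Eno1 and 0.580 for Pfkp to 0.955 for Aldoa. Gpi1 and Gapdh, the 2 glycolytic steps with no gene among the 10, had log2 differences of −0.05 (adjusted p = 0.754, limma) and −0.09 (512 ± 41.1 and 480 ± 23.4 FPKM, adjusted p = 0.386, limma). Of the 100-base stretches of Gapdh transcripts 53.1% occur in other genes' transcripts, so its level is uncertain too.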

How the data were processed

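RNA of 20 tumour libraries was analysed from 1 table that the authors deposited, with 1 column per library and values in FPKM. Per the labels' protocols, libraries were made from column-purified total RNA with strand kept, and per the submitters' processing notes the build was mm10. The sources used here name no aligner, counting tool or annotation. Reads are not counted in the table, so the depth is unknown.

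Groups were compared on log2(FPKM + 1) with limma 3.58.1 (R 4.3.3, no covariate, robust and trended moderation, two-sided), on 12788 rows whose mean reached 0.5 FPKM, with Benjamini-Hochberg adjustment and a threshold of 0.05. Log2 differences understate changes of low genes. On simulated data with 12788 genes, 66% of genes changed 1.25-fold and 92% of genes changed 1.5-fold were recovered in this comparison. Shares and relations used permutation tests with 100000 resamples (scipy 1.17.1), and neighbouring levels exact sign-flip tests. Relations were computed on log2(FPKM + 1) within each group. Promoters, coordinates and gene names came from RefSeq tables of GRCm38, in which all 10 genes matched, and shared transcript stretches of 50 and 100 bases from GENCODE M21.

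The 10 genes and all lists were chosen with earlier results of these data known. Named genes are the 10, isozymes of their families, from each list any gene past the threshold and at most 3 others with the smallest p, and the 5 genes most and least like their mean. Alternatives covered the pseudocount, the filter, scaling, weights, covariates, the replicate number as a block and leaving out libraries. Same-numbered libraries deviated together (correlation over 0.1) in 5 of 10 pairs, which does not settle pairing, and the numbers were not treated as pairing. Values of some listed genes are not reported here.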

Additional observations from a re-analysis of the deposited data

Results flagged for a closer look

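Among 34 sets of 10 values examined (levels and isozyme shares by group), 2 had a library far from its group, where chance flags about 1 in 20. Pkm in P.T.ATBx 8 was at 868.6 FPKM, and the next library was at 767.4; the gap was 0.611 of the group's range. P.T.ATBx 8 was also the highest P.T.ATBx library for Hk2, Pfkp, Aldoa and Ldha. The share of Pgam1 in the RNA of Pgam1 and Pgam2, the muscle form, was 98.1% in Control 10, where the nearest Control library had 99.6%; the gap was 0.800 of the range. Control 10 also had the highest mean centred log2 level of the skeletal muscle markers, at 2.20, and the part of muscle RNA in that share was not tested.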

How the results depend on the processing

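Of the 10 genes, 0 passed in every fit except that with limma's arrayWeights, where 1 did, Pfkp (log2 difference −0.26, adjusted p = 0.0332, limma). The number at an unadjusted p under 0.05, 3 as reported, was 1 on the TPM scale, 7 with arrayWeights, 6 with Ptprc as a covariate, 5 with the adipocyte mean as a covariate (added after seeing the data), 7 without the 4 libraries richest in Rpph1 and Rmrp, and 2 to 5 on leaving out 1 library, with 5 without Control 1 or without Control 9. Of the 72 other pathway genes, 1 passed with arrayWeights (Slc16a3, −0.38), with the muscle covariate (Aldoc, −0.53) and with the Rpph1 and Rmrp share as a covariate (Pgm3, 0.13, added after seeing the data), and 0 to 1 on leaving out 1 library (Pfkfb2 without Control 9, Pgm3 without P.T.ATBx 6).

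Slc2a1 turned to −0.0143 with arrayWeights and −0.0107 with the muscle covariate and ran from −0.0139 to 0.0700 on leaving out 1 library, and Eno1 ran from −0.173 to 0.00449. Without 1 library 0 to 2 isozyme shares passed: Ldha without Control 1 or P.T.ATBx 2, Aldoa without Control 2 or Control 7, and Pfkp without Control 2. The difference in the Hk2 share then ran from −0.0569 to 0.818 percentage points and that in the Eno1 share from −1.49 to 0.933. The 47 relations past the threshold became 91 on the TPM scale, where pairs of all genes had a median r of 0.36 in Control and 0.27 in P.T.ATBx, and 29 without the 4 libraries (added after seeing the data); the cause was not tested.

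Over all rows 108 were called, 59 higher and 49 lower, against 49 on the TPM scale (20 higher and 29 lower), 306 with arrayWeights, 221 with the Ptprc covariate, 242 with the Rpph1 and Rmrp covariate, 67 without the 4 libraries, and 69 (without P.T.ATBx 4) to 193 (without Control 1) on leaving out 1 library; the cause was not tested. Egln3 passed in all 34 alternatives (adjusted p from 0.00028 to 0.00748, limma). With the replicate number as a block, 0 of the 10 genes and 0 other pathway genes passed, 4 of the 10 had an unadjusted p under 0.05 (Pgk1 in addition), 0 shares passed and 124 rows were called. Whether same-numbered libraries pair was not settled: 3 of 10 correlated best with their own number, and the labels do not say. The table gives no counts, so precision rests on the number of libraries.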

Other observations

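Slc2a4, Pcx and Pck1, named after their values were seen, had the widest spread of the pathway genes and followed the fat marker gene Adipoq. Slc2a4, the insulin-regulated glucose transporter, ran from 0.0575 FPKM in Control 8 to 6.85 in Control 3, and Pcx, which carboxylates pyruvate, from 2.41 to 60.8 in the same 2 libraries. Pck1, the gluconeogenic carboxykinase, ran from 0.229 to 69.9 in them, and Adipoq from 1.17 to 154. Within groups, r with Adipoq was 0.957 and 0.874 for Slc2a4, 0.933 and 0.895 for Pcx, and 0.984 and 0.973 for Pck1 (Control and P.T.ATBx, log2 scale, permutation, adjusted p of 0.00054 or less over 6 relations), and rho was 0.867 or higher. Without 2 libraries r stayed at 0.841 or higher. Their log2 differences between groups were −0.44, −0.66 and −0.35 (adjusted p = 0.576, 0.568 and 0.878, limma), beside adipocyte marker sums of 60.6 to 3071 FPKM in Control and 91.2 to 757 in P.T.ATBx; their part in these differences was not tested.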
